A study of Homo sapiens with 4 samples.

Results

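The genes examined were 59 protein-coding genes of the Wnt pathway, chosen by name from the 19912 genes of the count table: 19 WNT ligands, 12 receptors (10 Frizzled genes, LRP5 and LRP6), 10 secreted inhibitors (4 DKK genes, 4 SFRP genes, FRZB and NOTUM), 8 genes of the R-spondin axis and 10 intracellular genes. The cells were endothelial cells positive for a GATA2/eGFP reporter, differentiated from H1, a human embryonic stem cell line, and were either wild type (WT, 2 libraries) or knocked out for GFI1 (GFI1-KO, 2 libraries). The reporter is common to both groups, and the labels name no other treatment. GFI1 is a transcriptional repressor known from the step at which blood cells emerge from endothelium, and the question here is how the Wnt genes stand with and without it. The labels do not give the number of knockout clones or say that replicates were separate cultures, so the spread behind each p-value may be technical.

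Wnt proteins are secreted, lipid-modified ligands that bind Frizzled receptors. With the co-receptors LRP5 and LRP6, canonical Wnt binding recruits Dishevelled and inactivates a complex of AXIN, APC and kinases that marks beta-catenin for destruction; beta-catenin then acts in the nucleus with TCF and LEF factors. Other Wnt ligands act through non-canonical routes that do not need beta-catenin, and in endothelium the pathway is known for its part in vessel growth and barrier formation.

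The libraries held 2239214 and 2417410 counts (WT 1 and 2) and 146584 and 2332621 counts (GFI1-KO 1 and 2), so GFI1-KO 1 was between 15.3 and 16.5 times shallower than the others. In it, 1 count equals 6.62 CPM (counts scaled for depth, on TMM-adjusted library totals), against 0.42 to 0.447 CPM in the other 3. The 59 genes together had 205 counts in GFI1-KO 1 and 2903 to 3259 in the others. GFI1 was at 58.5 and 58.3 CPM in WT against 19.9 and 19.6 CPM in GFI1-KO (edgeR adjusted p = 0.0215). GATA2, whose reporter defines the cells, was lower as well, at 293 and 252 CPM in WT and 139 and 124 CPM in the knockout (adjusted p = 0.0376). All 8 endothelial markers were detected, with a summed level of 5410 and 5672 CPM in WT against 6591 and 8097 CPM in GFI1-KO. KDR made up most of these sums, and PECAM1 stood the other way, at 443 and 388 CPM in WT and 345 and 324 CPM in the knockout. ESAM was at 272 and 289 CPM in WT and 258 and 381 CPM in the knockout. The 1 endothelial marker called was EMCN, which was higher, at 11.6 and 6.71 CPM in WT against 72.9 and 41.4 CPM (edgeR adjusted p = 0.00959). Of 12 blood markers, 7 were at 0 in all libraries, PTPRC and 5 globin genes among them, and the summed level was 18.8 and 36.5 CPM in WT against 6.62 and 6.23 CPM in GFI1-KO. The value of GFI1-KO 1 is a single count, of CD14, with an exact 95% counting interval of 0.168 to 36.9 CPM that spans both WT sums. All 10 mesenchymal and smooth muscle markers had counts, led by COL1A2 and COL1A1, with sums of 2203, 1827, 1762 and 1852 CPM in the order WT 1, WT 2, GFI1-KO 1, GFI1-KO 2. The 6 pluripotency markers (NANOG at 0) summed to 122, 121, 79.5 and 98.4 CPM and the 9 neural and epithelial markers (SOX1 at 0) to 994, 823, 643 and 1147 CPM in that order. DPPA4 made up most of the pluripotency sums, at 119, 115, 79.5 and 95.25 CPM, and SOX2 had at most 1 count in any library. NES, KRT8 and KRT18 made up most of the neural and epithelial sums. The part of these other cell types in the results below was not tested, and in bulk samples fewer cells of a type and less RNA per cell cannot be told apart.

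Per kilobase of exon, the Wnt genes with the highest mean WT level were the inhibitor SFRP1, the Dishevelled gene DVL3 and the ligand WNT11. None of the 59 passed the test between genotypes. Of the 59 genes, 12 had 0 counts in all libraries, 36 passed the low-count filter and 23 did not. By edgeR's quasi-likelihood test, 0 of the 36 had an adjusted p under 0.05, beside 0.958% of all 11380 genes tested (0.773% higher and 0.185% lower). DESeq2 also called 0 (background of all genes called 0.409%), as did limma-voom (background 1.16%) and edgeR's newer dispersion (background 0.51%). The number called was also 0 with scaling by DESeq2's size factors (background 0.905%), by upper quartiles (0.51%) or by library totals (0.633%). It was 0 as well with a minimum mean of 5 CPM (0.452%), and in the fits without WT replicate 1 (0.534%) or WT replicate 2 (0.833%). Unadjusted p-values under 0.05 were found by DESeq2 for 2 of 36 Wnt genes, beside 395 of all 11380 genes fitted. DESeq2 gave an adjusted p to 17 of the Wnt genes and to 8070 of all genes. By limma-voom they were found for 9 of 36, beside 1144 of 11380, and by the newer dispersion for 8 of 36, beside 1169 of 11380. Without a low-count filter 1 was called, WNT11, beside 1.96% of all genes; the fit with the replicate number as a block, which the labels do not tie to a shared source, called 3 beside 2.87%. At an unadjusted p under 0.05 there were 8 of 36, 4 higher and 4 lower in GFI1-KO, beside 9.35% of all genes (5.81% higher and 3.54% lower): FZD4, FZD1, FZD10 and SFRP1 on the higher side, WNT11, FZD5, WNT3 and DKK2 on the lower. The median log2 fold change (GFI1-KO over WT) was -0.18 over the 36 and -0.02 over all genes tested. The median standard error (SE) was 0.43 for the 36 and 0.32 for all genes, so 95% intervals were wide. The groups did not overlap for 15 of the 36 (5 with both knockout values above WT, 10 below), beside 41.2% of all genes tested (18.6% above, 22.7% below). Of the 36 genes, 8 had 0 counts in GFI1-KO 1.

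The promoters of the Frizzled genes with the 3 smallest p-values are shown because these receptors differ in direction: FZD4 and FZD1 were at higher values in GFI1-KO and FZD5 at lower ones. The windows come from RefSeq (GRCh38.p14), run from 250 bases before to 50 bases after the annotated start, and are written 5′ to 3′ on the gene's strand. Capitals mark AATC, the core of the GFI1 recognition sequence, on either strand (AATC or GATT).
FZD4 (chr11:86955346-86955645, minus strand): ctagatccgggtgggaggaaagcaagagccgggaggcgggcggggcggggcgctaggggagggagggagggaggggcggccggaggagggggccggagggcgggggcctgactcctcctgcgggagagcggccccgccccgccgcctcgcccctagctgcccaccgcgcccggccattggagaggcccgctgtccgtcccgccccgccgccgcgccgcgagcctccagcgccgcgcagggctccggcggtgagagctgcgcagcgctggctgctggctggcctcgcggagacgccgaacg
FZD1 (chr7:91264183-91264482, plus strand): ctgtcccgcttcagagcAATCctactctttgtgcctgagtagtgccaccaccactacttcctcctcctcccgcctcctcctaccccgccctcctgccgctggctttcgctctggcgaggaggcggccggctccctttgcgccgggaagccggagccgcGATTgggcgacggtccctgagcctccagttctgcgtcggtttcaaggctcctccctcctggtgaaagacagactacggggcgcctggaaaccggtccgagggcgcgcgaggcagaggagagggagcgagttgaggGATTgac
FZD5 (chr2:207769857-207770156, minus strand): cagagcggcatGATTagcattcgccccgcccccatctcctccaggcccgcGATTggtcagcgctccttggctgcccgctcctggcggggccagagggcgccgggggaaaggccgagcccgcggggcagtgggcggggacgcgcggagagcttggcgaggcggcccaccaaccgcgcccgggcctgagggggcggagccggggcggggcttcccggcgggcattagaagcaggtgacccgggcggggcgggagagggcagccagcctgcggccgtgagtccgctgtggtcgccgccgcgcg

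The window of FZD1 held 3 AATC matches, that of FZD5 held 2 and that of FZD4 held 0. AATC occurred in 69% of the 35116 RefSeq promoter windows of the same length and in 30 of the 49 windows of the Wnt genes, so a match is common and is a description of the letters, not a binding site. CTTTGAT, a TCF/LEF motif, was in 0 of the 49 windows on either strand and in 2.62% of all windows; it can overlap GATT where a T follows. The 49 windows belonged to 41 of the 59 genes. The FZD5 start in RefSeq lies 343 bases before the one in GENCODE release 29. For FZD4 the RefSeq start lies 4 bases before that of GENCODE, and for FZD1 it lies 69 bases after.

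**Figure D1:**
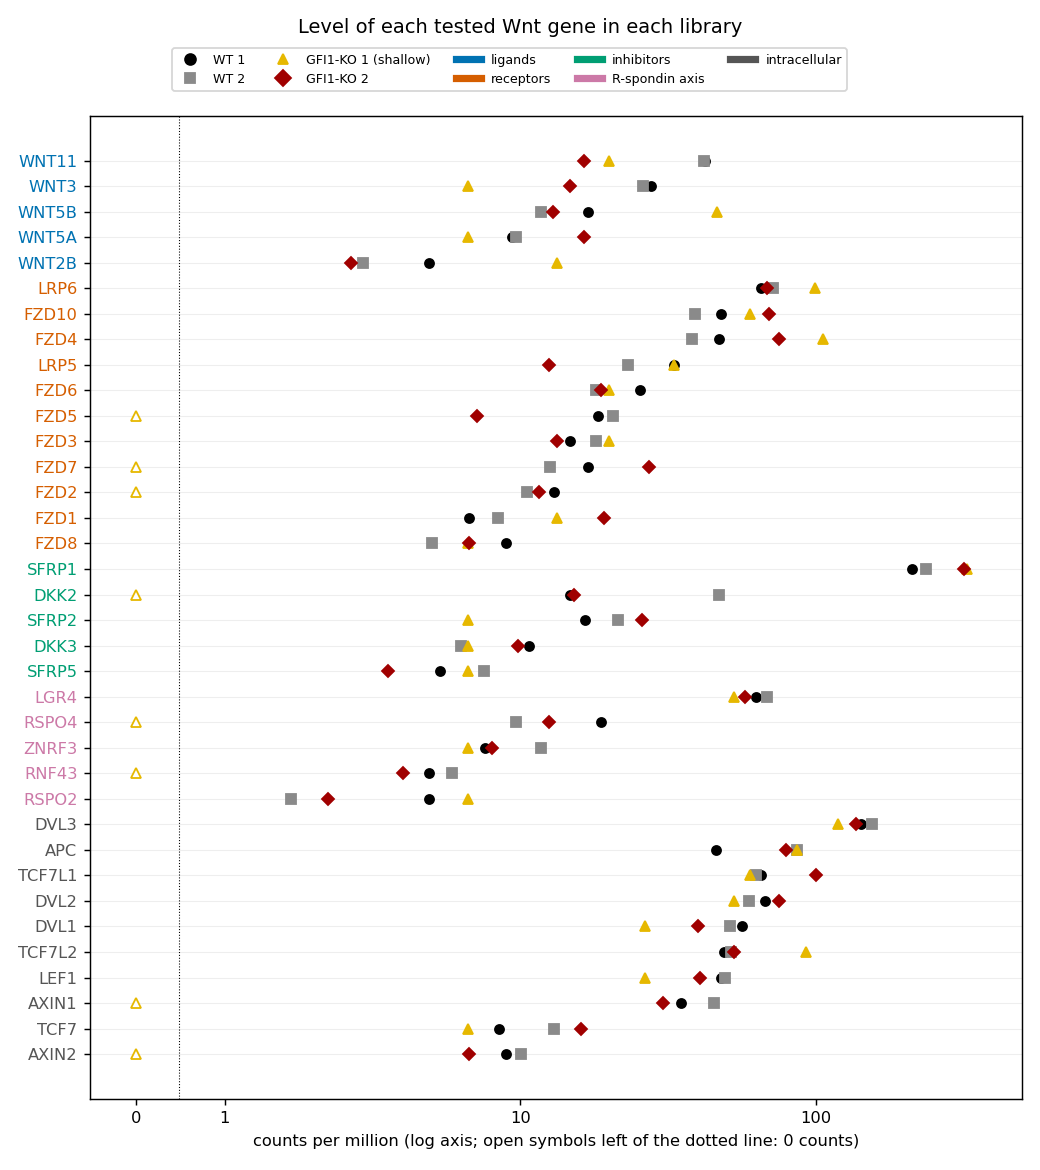
Level of the 36 tested Wnt genes in each of the 4 libraries, in CPM on a log axis, with gene names coloured by role and open symbols for 0 counts. SFRP1 has the highest values in every library, and GFI1-KO 1 has 0 counts for 8 genes.

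Among the ligands, the 5 that passed the filter were WNT11, WNT3, WNT5B, WNT5A and WNT2B. WNT11, a ligand known for non-canonical signalling and cell movements, had the highest WT level per kilobase of exon (17.5 CPM per kb in both WT libraries). WNT3, a canonical ligand, followed with 6.39 and 6.0 CPM per kb, then WNT5B with 3.94 and 2.73 and WNT5A, the best known non-canonical ligand, with 1.27 and 1.31. These levels do not overlap between neighbours in WT. In the knockout the values of the ligands overlapped: WNT5B was at 10.8 CPM per kb in GFI1-KO 1 and 3.0 in GFI1-KO 2.

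WNT11 (ENSG00000085741; chromosome 11, 76186325 to 76210736, minus strand, GRCh38) had 94 and 100 WT counts and 3 and 37 in the knockout, which is 42.0 and 42.0 CPM against 19.9 and 16.5 CPM. Both knockout libraries were below both WT libraries. The log2 fold change was -1.31 (SE 0.35, 95% interval -2.04 to -0.58, edgeR adjusted p = 0.0935), the smallest adjusted p of the 59 genes. Pooled over libraries, the knockout level was 0.398 times that of WT (exact 95% interval from counting error 0.275 to 0.561). The counting interval of GFI1-KO 2 (11.6 to 22.7 CPM) lay below those of WT 1 (33.9 to 51.4) and WT 2 (34.1 to 51.0), while that of GFI1-KO 1 (4.10 to 58.1) spanned them. Without GFI1-KO replicate 1, WNT11 passed the test (log2 fold change -1.35, SE 0.35, adjusted p = 0.00744) and was the single one of 38 Wnt genes tested in that fit to do so, beside 3.18% of all genes. In that fit the spread comes from the 2 WT libraries alone, and the lone knockout library is assumed to vary as they do. Its adjusted p was 0.593 without WT replicate 1, 0.587 without WT replicate 2, and became 0.547 when GFI1-KO replicate 2 was left out. An antisense gene, AP000785.1, overlaps its exons, and the strand setting of the counting is not given. The summed blood markers were also lower in GFI1-KO 2 (1 count in all in GFI1-KO 1). The summed endothelial markers were higher in both knockout libraries, PECAM1 and, in GFI1-KO 1, ESAM aside, as given above. The part of either list in the WNT11 values was not tested.

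WNT3 had 62 and 62 WT counts and 1 and 33 in the knockout, which is 27.7 and 26.0 CPM against 6.62 and 14.7 CPM. Its groups did not overlap, and the log2 fold change was -0.96 (SE 0.39, adjusted p = 0.40). WNT5A had 21 and 23 WT counts and 1 and 37 in the knockout, with the WT values of 9.38 and 9.65 CPM lying between the knockout values of 6.62 and 16.5 CPM (0.67, SE 0.46, adjusted p = 0.775). WNT5B had 38 and 28 WT counts and 7 and 29 in the knockout; at 17.0, 11.7, 46.4 and 12.9 CPM, its highest value came from the shallow library, and the groups overlapped (0.28, SE 0.51, adjusted p = 0.956). WNT2B had 11 and 7 WT counts and 2 and 6 in the knockout (-0.13, SE 0.81, adjusted p = 0.994), and 21.2% of its exon bases are shared with ST7L on the other strand.

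Of the 14 ligands below the filter, 9 were at 0 in every library: WNT1, WNT4, WNT6, WNT7B, WNT8A, WNT8B, WNT9B, WNT10A and WNT10B. A count of 0 allows up to 1.34, 1.26, 19.9 and 1.34 CPM in WT 1, WT 2, GFI1-KO 1 and GFI1-KO 2 (3 counts per library, counting error only). WNT16 had 3, 2, 1 and 3 counts in that order, and WNT2, WNT3A, WNT7A and WNT9A had at most 1 count in any library. WNT7A and WNT7B, the ligands known for acting on brain endothelium, thus summed to 1 count over all libraries.

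Shares of the family's counts do not depend on the scaling between libraries. WNT11 took 40.9% of all WNT ligand counts in WT 1 (exact 95% interval 34.5 to 47.5%) and 44.4% in WT 2 (37.8 to 51.2%), against 25% in GFI1-KO 2 (18.3 to 32.8%). In GFI1-KO 1 it took 3 of 15 counts (4.33 to 48.1%), which spans the WT values. WNT5A took 9.13% (5.74 to 13.6%) and 10.2% (6.59 to 14.9%) in WT and 25% (18.3 to 32.8%) in GFI1-KO 2, but 6.67% (0.169 to 31.9%) in GFI1-KO 1. WNT3 took 27.0% and 27.6% in WT and 22.3% in GFI1-KO 2. The summed level of the 19 ligands was 103 and 94.4 CPM in WT and 99.4 and 65.9 CPM in the knockout, and the groups overlapped.

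**Figure D2:**
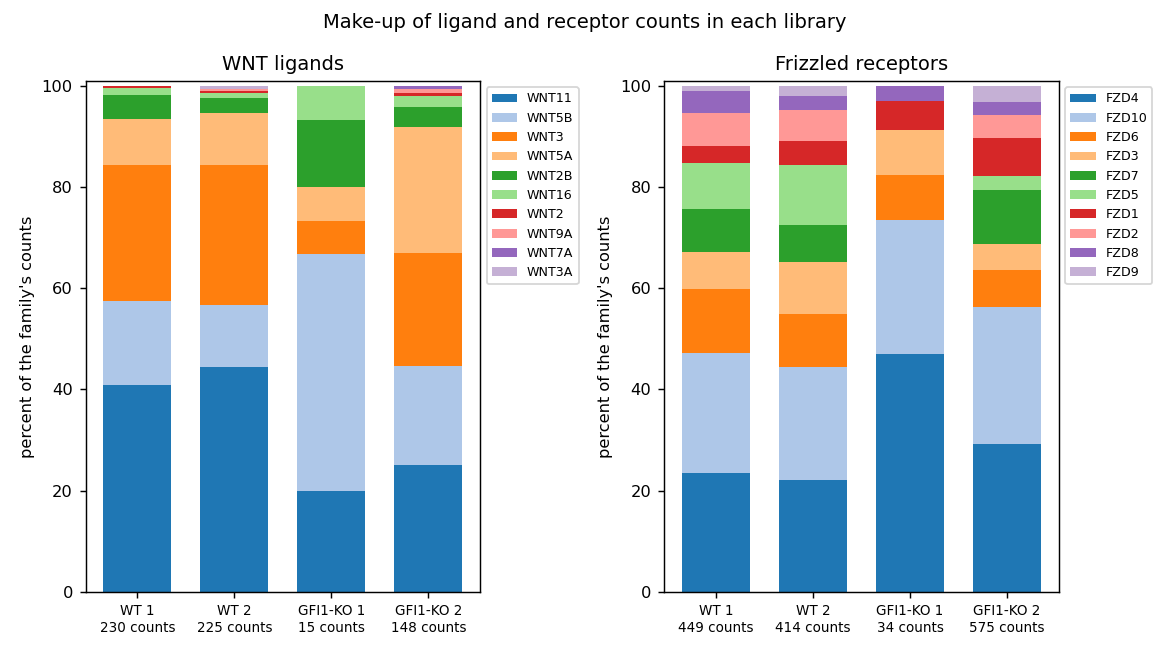
Percent of the counts of all WNT ligand genes (left) and all Frizzled genes (right) held by each gene in each library, with the family's total counts under each bar. WNT11 holds 40.9% and 44.4% of the ligand counts in WT 1 and WT 2 and 25% in GFI1-KO 2, and GFI1-KO 1 rests on 15 ligand and 34 Frizzled counts.

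Of the receptors, 11 of 12 were tested, 0 passed, and 4 had groups that did not overlap (41.2% over all genes tested). The summed level of the 10 Frizzled genes was 200 and 174 CPM in WT and 225 and 256 CPM in the knockout. FZD10 had the highest level per kilobase in WT (14.6 and 11.9 CPM per kb). It was followed in WT by LRP6 (6.31 and 6.94), FZD4 (6.35 and 5.17), FZD2 (6.13 and 4.97), FZD6 (6.26 and 4.44) and LRP5 (5.36 and 3.74). The values of FZD4 overlapped those of each of the others in this list, while those of LRP6 lay above those of FZD2, FZD6 and LRP5.

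FZD4 is the receptor of Norrin as well as of Wnt ligands and is known for its part in retinal vessel growth. FZD4 (ENSG00000174804; chromosome 11, 86945679 to 86955391, minus strand) had 105 and 91 WT counts and 16 and 168 in the knockout, which is 46.9 and 38.2 CPM against 106 and 74.8 CPM. Both knockout libraries were above both WT libraries, and the counting intervals of GFI1-KO 1 (60.6 to 172 CPM) and GFI1-KO 2 (63.9 to 87.0 CPM) lay above those of WT 1 (38.4 to 56.8) and WT 2 (30.7 to 46.9). The log2 fold change was 0.94 (SE 0.27, 95% interval 0.37 to 1.51, edgeR adjusted p = 0.135). It was 0.81 without GFI1-KO replicate 1 (adjusted p = 0.073) and 1.33 without GFI1-KO replicate 2 (adjusted p = 0.0832). FZD4 shares 1399 of its 7383 exon bases (18.9%) with PRSS23, a protease gene on the other strand that was called higher (53.6 and 43.6 CPM in WT, 166 and 130 CPM in the knockout; log2 fold change 1.52, SE 0.26, adjusted p = 0.00906). How far reads of PRSS23 entered the FZD4 count was not tested. The summed endothelial markers, led by KDR, were also higher in both knockout libraries, though PECAM1 was lower in both and ESAM in GFI1-KO 1. Their part in the FZD4 values was not tested.

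FZD5, which binds several canonical ligands, was at the lowest fold change of the 36 genes. FZD5 (ENSG00000163251; chromosome 2, 207762586 to 207769563, minus strand) had 41 and 49 WT counts and 0 and 16 in the knockout, which is 18.3 and 20.6 CPM against 0 and 7.12 CPM. The log2 fold change was -1.58 (SE 0.50, 95% interval -2.63 to -0.52, adjusted p = 0.186), and the pooled ratio was 0.343 (exact interval 0.188 to 0.587). At the WT level, GFI1-KO 1 would hold 2.93 counts, so a 0 there does not set it apart from WT. The log2 fold change was -1.44 without that library, -1.72 without WT replicate 1 and -1.56 without WT replicate 2. FZD5 was called in none of these fits. FZD5 took 9.13% (6.63 to 12.2%) and 11.8% (8.89 to 15.3%) of the Frizzled counts in WT 1 and WT 2 and 2.78% (1.60 to 4.48%) in GFI1-KO 2. In GFI1-KO 1 it took 0 of 34 counts (0 to 10.3%), an interval that includes the WT 1 share.

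FZD1 had 15 and 20 WT counts and 2 and 43 in the knockout, which is 6.70 and 8.39 CPM against 13.2 and 19.1 CPM (log2 fold change 1.27, SE 0.45, adjusted p = 0.277). FZD10 had 107 and 93 WT counts and 9 and 156 in the knockout, which is 47.8 and 39.0 CPM against 59.6 and 69.4 CPM (0.64, SE 0.26, adjusted p = 0.413). Both knockout libraries were above both WT libraries for each of these receptors. FZD7, a receptor prominent in stem cells, had values of 17.0 and 12.6 CPM in WT and was at 27.1 CPM in GFI1-KO 2, but had 0 counts in GFI1-KO 1, where 2.23 would stand at the WT level (0.64, SE 0.46, adjusted p = 0.801). FZD2, FZD3, FZD6 and FZD8 had log2 fold changes of -0.19, -0.21, -0.20 and -0.06, with groups that overlapped and adjusted p from 0.959 to 0.998. FZD9, below the filter, had 4 and 8 WT counts and 0 and 18 in the knockout.

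The co-receptors had unlike values. LRP5 had 74 and 55 WT counts and 5 and 28 in the knockout, which is 33.0 and 23.1 CPM against 33.1 and 12.5 CPM. The value of GFI1-KO 1 matched that of WT 1, and that of GFI1-KO 2 lay below both WT libraries. The counting interval of GFI1-KO 1 (10.8 to 77.3 CPM) spans the values of all the other libraries, so the knockout libraries are not shown to differ. The log2 fold change was -0.90 (SE 0.44, adjusted p = 0.556); it was -1.16 without GFI1-KO replicate 1 and 0.25 without GFI1-KO replicate 2. LRP6 was at 65.2 and 71.8 CPM in WT and 99.4 and 68.1 CPM in the knockout (0.13, SE 0.27, 95% interval -0.44 to 0.69, adjusted p = 0.966).

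**Figure D3:**
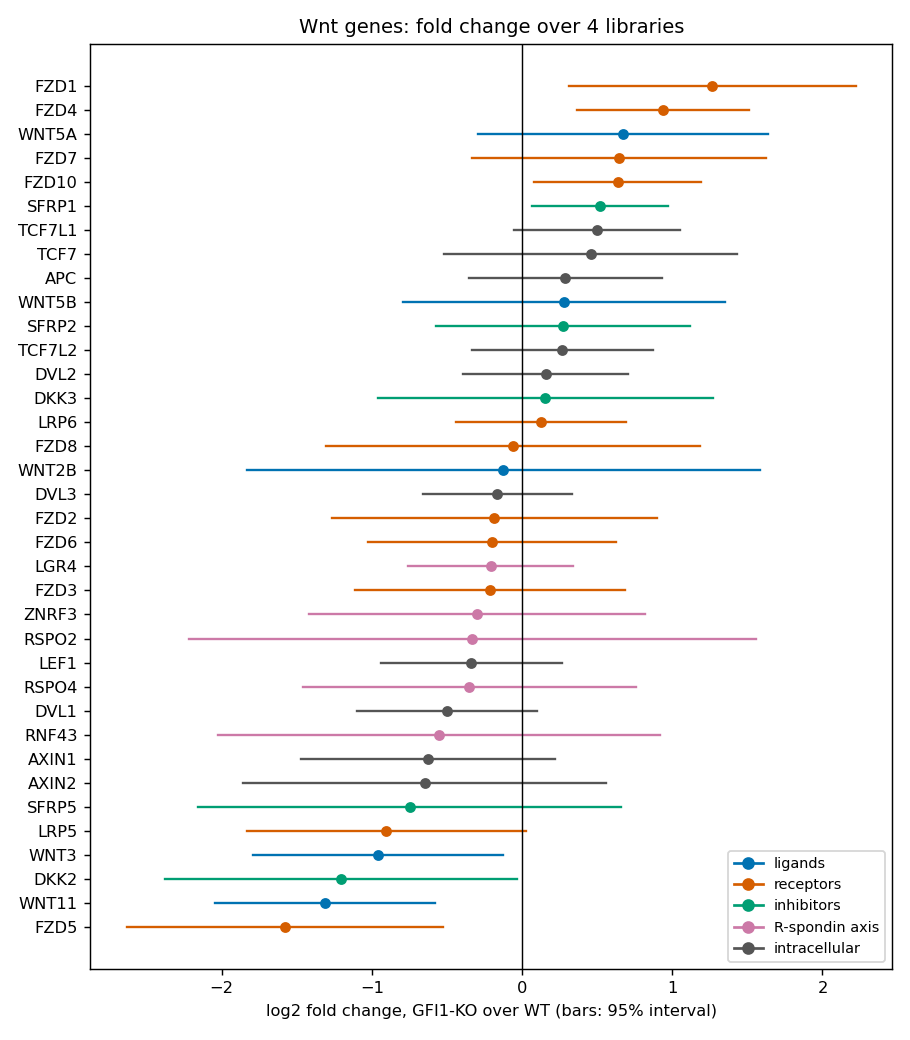
Log2 fold change of the 36 tested Wnt genes, GFI1-KO over WT, with 95% intervals and coloured by role, ordered by value from FZD5 (-1.58) to FZD1 (1.27). None has an adjusted p under 0.05, and the intervals of 8 genes lie wholly on one side of 0.

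Of the secreted inhibitors, 5 of 10 were tested and 0 passed. SFRP1, which binds Wnt ligands outside the cell, had the highest level per kilobase of all 59 genes, at 44.4 and 49.5 CPM per kb in WT and 68.2 and 66.7 in the knockout. Its counts were 473 and 562 in WT and 49 and 713 in the knockout, which is 211 and 236 CPM against 325 and 317 CPM. Both knockout libraries were above both WT libraries and close to each other, including the shallow one. The log2 fold change was 0.52 (SE 0.22, 95% interval 0.06 to 0.97, edgeR adjusted p = 0.422), and its values over the alternative fits ran from 0.45 to 0.61. SFRP2, its relative, was at 16.5 and 21.4 CPM in WT and 6.62 and 25.8 CPM in the knockout, with groups that overlapped (0.27, SE 0.40, adjusted p = 0.937). SFRP5 had 12 and 18 counts against 1 and 8 (-0.75, SE 0.67, adjusted p = 0.857), and SFRP4 was at 0 throughout. FRZB, below the filter, had 3 and 4 WT counts and 3 and 9 in the knockout.

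The Dickkopf genes encode secreted proteins, of which DKK1 and DKK2 bind LRP5 and LRP6. DKK2 had 33 and 112 WT counts and 0 and 34 in the knockout, which is 14.7 and 47.0 CPM against 0 and 15.1 CPM. The WT libraries differed more from each other than WT 1 differed from GFI1-KO 2, and the groups overlapped. The log2 fold change was -1.21 (SE 0.55, adjusted p = 0.508). Without WT replicate 2 the value was -0.25 (adjusted p = 1) and without WT replicate 1 it was -1.85 (adjusted p = 0.0816). DKK1 had 4 and 0 WT counts and 0 and 9 in the knockout, DKK3 had 24 and 15 against 1 and 22 (0.16, SE 0.53, adjusted p = 0.981), and DKK4 was at 0 throughout. NOTUM, a secreted enzyme that removes the lipid of Wnt ligands, had 7 and 5 WT counts and 0 and 2 in the knockout and was not tested.

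In the R-spondin axis, R-spondins bind LGR receptors and hold back the membrane ligases ZNRF3 and RNF43, which remove Frizzled receptors from the surface. All 5 tested genes had log2 fold changes below 0, from -0.55 to -0.21, with adjusted p from 0.915 to 0.974; of all 11380 genes tested, 5976 were below 0. The shared sign did not hold across fits: RSPO2 was at 1.01 without GFI1-KO replicate 2, 0.40 with the replicate block, 0.23 by limma-voom and 0.06 by DESeq2, RSPO4 at 0.08 without WT replicate 1 and ZNRF3 at 0.04 without WT replicate 2. LGR4 was the most abundant per kilobase (9.86 and 10.8 CPM per kb in WT, 8.36 and 9.06 in the knockout). It had 140 and 163 WT counts and 8 and 129 in the knockout, which is 62.5 and 68.4 CPM against 53.0 and 57.4 CPM (-0.21, SE 0.26, 95% interval -0.76 to 0.34). The groups did not overlap, yet the difference was smaller than its SE. ZNRF3 had 17 and 28 WT counts and 1 and 18 in the knockout (-0.30, SE 0.53), and RNF43 had 11 and 14 against 0 and 9 (-0.55, SE 0.70). RSPO4 had 42 and 23 WT counts and 0 and 28 in the knockout (-0.35, SE 0.53, adjusted p = 0.94) and RSPO2 had 11 and 4 against 1 and 5 (-0.33, SE 0.89). RSPO3 had 13 counts in WT 1 and 0 in WT 2, and 0 and 8 in the knockout, so it varied within each genotype. LGR5 had 0 and 7 WT counts and 0 and 1 in the knockout, and RSPO1 was at 0 throughout.

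All 10 intracellular genes were tested and 0 passed, with values from -0.65 to 0.50. The Dishevelled genes relay the signal from Frizzled, and DVL3 was the most abundant of the 10 per kilobase (22.3 and 24.3 CPM per kb in WT, 18.7 and 21.5 in the knockout). DVL3 was at 142 and 154 CPM in WT and 119 and 137 CPM in the knockout (-0.17, SE 0.23, 95% interval -0.66 to 0.33, adjusted p = 0.937). DVL1 was at 56.3 and 51.2 CPM in WT and 26.5 and 40.1 CPM in the knockout, with groups that did not overlap (-0.50, SE 0.28, adjusted p = 0.668). Its value in GFI1-KO 1 is 4 counts, with a counting interval (7.22 to 67.8 CPM) that spans WT. DVL2 was at 67.4 and 59.2 CPM in WT and 53.0 and 75.2 CPM in the knockout, on both sides of WT (0.16, SE 0.26, adjusted p = 0.947). The summed level of the 3 genes was 266 and 265 CPM in WT and 199 and 252 CPM in the knockout.

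The scaffold genes AXIN1 and APC belong to the destruction complex, and AXIN2 is also a widely used target of beta-catenin. AXIN1 had 78 and 108 WT counts and 0 and 68 in the knockout, which is 34.8 and 45.3 CPM against 0 and 30.3 CPM (-0.63, SE 0.40, adjusted p = 0.745). The WT level would give 6.05 counts in GFI1-KO 1. In the fit without GFI1-KO replicate 2, where that 0 stands alone, AXIN1 was called lower (adjusted p = 0.0292), the single one of 36 Wnt genes tested there, beside 2.36% of all genes. That call sets 1 library with 0 counts against WT, with a spread from the WT libraries alone and no fold change. Without GFI1-KO replicate 1 the log2 fold change was -0.41 (adjusted p = 0.801). AXIN2 had 20 and 24 WT counts and 0 and 15 in the knockout, which is 8.93 and 10.1 CPM against 0 and 6.68 CPM (-0.65, SE 0.57, 95% interval -1.86 to 0.56, adjusted p = 0.857). APC differed within WT, at 46.0 and 86.0 CPM, by more than between genotypes, with 86.1 and 79.2 CPM in the knockout (0.29, SE 0.30, adjusted p = 0.891).

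The TCF and LEF factors bind DNA with beta-catenin, and TCF7L1 is known mainly as a repressor. TCF7L1 was at 65.2 and 62.5 CPM in WT and 59.6 and 99.7 CPM in the knockout, on both sides of WT (0.50, SE 0.26, adjusted p = 0.607). LEF1 was at 47.8 and 49.1 CPM in WT and 26.5 and 40.5 CPM in the knockout, with groups that did not overlap (-0.34, SE 0.29, adjusted p = 0.845). Its value in GFI1-KO 1 is 4 counts, with a counting interval (7.22 to 67.8 CPM) that spans WT. TCF7L2 was at 48.7 and 51.6 CPM in WT and 92.7 and 53.0 CPM in the knockout, above WT in both libraries, by little in the deeper one (0.27, SE 0.28, adjusted p = 0.891). TCF7 had 19 and 31 counts against 1 and 36 (0.46, SE 0.46, adjusted p = 0.885). Per kilobase, TCF7L1 stood highest of the 4 in WT (14.8 and 14.2 CPM per kb), above LEF1 (8.91 and 9.16), TCF7L2 (7.23 and 7.66) and TCF7 (0.84 and 1.29), and their WT values did not overlap. DVL1, LEF1, TCF7, TCF7L2 and, of the R-spondin axis, RNF43 share exon bases with genes on the other strand.

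**Figure D4:**
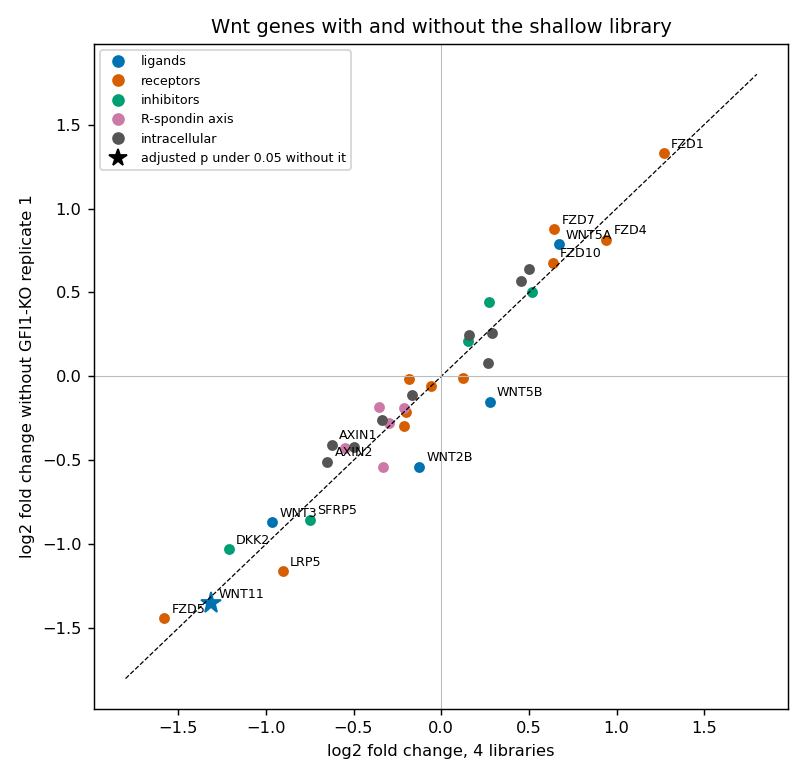
Log2 fold change of the 36 tested Wnt genes from all 4 libraries (horizontal) and from the fit without GFI1-KO replicate 1 (vertical), coloured by role, with a dashed line where they are equal. WNT11, the star, is past the threshold without that library, and WNT5B moves from 0.28 to -0.15.

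Outside the 59 genes, 88 other pathway genes were listed in 7 groups, with 86 present in the table and 76 tested. Of the 76, 0 were higher and 1 was lower past the threshold, beside 0.958% of all genes tested. That gene was TNFRSF19, a receptor gene known as a beta-catenin target, which fell from 63.4 and 68.4 CPM in WT to 0 and 23.6 CPM in the knockout (142 and 163 counts against 0 and 53). Its log2 fold change was -1.66 (SE 0.36, edgeR adjusted p = 0.0379), and the call was lost with DESeq2 (adjusted p = 1), limma-voom (0.0618), the newer dispersion (0.0783), upper-quartile scaling (0.0628) and a minimum mean of 5 CPM (0.0677). Leaving out any single library kept the call, with a knockout group at 0 counts in the fit without GFI1-KO replicate 2. Of the 14 tested genes on the list of frequent beta-catenin targets, 8 had values below 0 and the median log2 fold change was -0.13, beside 5976 of 11380 and -0.02 over all genes tested. At an unadjusted p under 0.05 by edgeR, 5 of the 14 were lower and 1 was higher, beside 3.54% and 5.81% of all genes. The lower ones were TNFRSF19, SLC2A1, MYC, BAMBI and SP5. The list was drawn up with earlier results of these data known. AXIN2, named above as a target, is not on it and had an unadjusted p of 0.27 by edgeR (-0.65, SE 0.57). MYC was at 46.4 and 90.2 CPM in WT and 0 and 28.9 CPM in the knockout (-1.44, SE 0.41, adjusted p = 0.135). MYC was called lower with no low-count filter and with the replicate block. SOX17, an endothelial and endodermal transcription factor gene on that list, was on the other side, at 109 and 55.4 CPM in WT and 146 and 177 CPM in the knockout (1.03, SE 0.30, adjusted p = 0.135). It was called higher with no low-count filter, with the replicate block, and when WT replicate 1 or GFI1-KO replicate 1 was left out. Among the lower values, SLC2A1, the glucose transporter gene of barrier endothelium, was at 81.7 and 126 CPM in WT and 33.1 and 50.3 CPM in the knockout (-1.13, SE 0.30, adjusted p = 0.0935), and it passed without GFI1-KO replicate 1 (adjusted p = 0.0146) and had an adjusted p of 0.955 without WT replicate 2.

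The other lists held 0 genes past the threshold. GPC4, a cell-surface glypican, was at 33.9 and 51.2 CPM in WT and 13.2 and 15.1 CPM in the knockout (-1.51, SE 0.38, adjusted p = 0.0743), and it passed without GFI1-KO replicate 1 (adjusted p = 0.00224) and had an adjusted p of 0.922 without WT replicate 2. CTHRC1, a secreted Wnt cofactor gene on the same list, was at 32.6 and 22.2 CPM in WT and 13.2 and 15.1 CPM in the knockout (-0.87, SE 0.40, adjusted p = 0.504). VANGL2, a planar cell polarity gene, was at 188 and 132 CPM in WT and 59.6 and 91.7 CPM in the knockout (-0.92, SE 0.27, adjusted p = 0.152). Its paralog VANGL1 was at 62.1 and 71.3 CPM in WT and 132 and 85.9 CPM in the knockout (0.54, SE 0.27, adjusted p = 0.576). With no low-count filter and with the replicate block, GPC4 and VANGL2 were called lower. TLE1, a corepressor of TCF factors, had 31 and 47 counts against 10 and 60 (0.99, SE 0.42, adjusted p = 0.435), and it passed without GFI1-KO replicate 2 (log2 fold change 1.98, adjusted p = 0.0419), where the knockout is the 10 counts of GFI1-KO 1 and the spread that of WT alone. GSK3B, a kinase of the destruction complex, was at 100.5 and 113.7 CPM in WT and 192.1 and 138.4 CPM in the knockout (0.53, SE 0.25, adjusted p = 0.534). Of the secretion genes, WLS was at 190 and 188 CPM in WT and 159 and 259 CPM in the knockout, and PORCN was at 12.5 and 10.9 against 0 and 7.57 CPM. ADGRA2 and RECK are the co-receptor genes for WNT7 ligands. ADGRA2 was at 624 and 480 CPM in WT and 390.8 and 488.3 CPM in the knockout (-0.29, adjusted p = 0.814). RECK was at 97.8 and 94.4 CPM in WT and 86.12 and 100.6 CPM in the knockout (0.01, adjusted p = 0.999).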

How the data were processed

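Sequencing covered 2 WT and 2 GFI1-KO libraries. Trizol was used to isolate RNA and a TruSeq kit to make the Illumina libraries, per the labels' protocols. The authors deposited raw read counts per gene, a column per library. Tools named, per the submitters' processing notes, are DESeq 1.18.1, HTSeq 0.6.0, HISAT2 2.0.4 and SAMtools 1.3.1, with the build GRCh38. The sources used here do not give the annotation version, read filters or strand setting. The knockout columns are headed GFI1 without KO and were matched to samples through that name and the replicate number.

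Symbols, positions and exon lengths came from GENCODE release 29 (19902 of 19912 identifiers matched). The test of counts was glmQLFTest of edgeR 4.0.16 under R 4.3.3 (normalization by TMM, filterByExpr with minimum count 10 and minimum total 15, glmQLFit with its earlier dispersion form, genotype as the term), and p-values were adjusted by Benjamini-Hochberg over 11380 genes, threshold 0.05. Fold changes use a prior count of 0.125; the SE is the unshrunken log2 fold change over the square root of F. The fit weights libraries by depth, so fold changes follow the deeper knockout library more than mean CPM does. Alternatives were DESeq2 1.42.0, voom from limma 3.58.1, the newer dispersion, 3 scalings, 2 filters, the replicate number as a block, and fits without each library in turn, in which the group of 1 library is assumed to vary like the other group, whose 2 libraries alone give the spread. The test was checked on simulated counts.

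The genes and lists were chosen with earlier results of these data known. All 59 Wnt genes are accounted for. Values per library are given for the 15 tested genes with the smallest p and the 3 with the highest level per kilobase in each role, and of the other lists for called genes and up to 2 with the smallest p per list; AMER1, BCL9L and TSPAN12, which that rule also takes, did not pass. Other genes named were chosen after their values were seen. The entries TLE5 and TIKI1 had no row under those symbols. Reads carry no molecular identifiers, so exact 95% intervals and floors of 3 counts cover counting error only. Figures were drawn with matplotlib 3.10.9.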

Additional observations from a re-analysis of the deposited data

How the results depend on the processing

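Of all genes, 109 were called. The number was 33 by DESeq2, 58 by the newer dispersion, 58 by upper-quartile scaling, 72 by library totals only, 50 under a minimum mean of 5 CPM and 305 with no low-count filter. It ran from 62 (WT replicate 1 left out) to 373 (GFI1-KO replicate 1 left out), with 274 when GFI1-KO replicate 2 was left out. Of the Wnt genes, 0 were called, against 1 (WNT11) with no low-count filter and 0 to 1 with a library left out: WNT11 when GFI1-KO replicate 1 was left out, AXIN1 when GFI1-KO replicate 2 was. Of the other pathway genes, 1 was called, against 0 by DESeq2, limma-voom, the newer dispersion, upper-quartile scaling and the minimum mean of 5 CPM, 6 with no low-count filter, and 1 to 5 with a library left out (5 for GFI1-KO replicate 1, 3 for WT replicate 1 and 3 for GFI1-KO replicate 2). The causes were not tested.

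Nothing in the labels ties libraries with the same replicate number, and their deviations from the group means correlated at 0.116 over 11380 genes. With the number as a replicate block, 327 genes, 3 Wnt genes (WNT11, DKK2 and FZD4) and 6 other pathway genes were called.

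With a library left out, the log2 fold change of 18 of the 36 tested Wnt genes, and of WLS, turned sign in at least 1 fit, and none of these turned values was called. The ranges were -1.16 to 0.251 for LRP5, -0.0898 to 0.642 for TCF7L1, -0.509 to 0.787 for WNT5A, -1.5 to 0.441 for SFRP2, -0.246 to 0.249 for DVL2 and -0.239 to 0.453 for WLS, each turned by leaving out GFI1-KO replicate 2. They were -0.15 to 1.7 for WNT5B and -0.00882 to 0.545 for LRP6 (GFI1-KO replicate 1), -0.845 to 0.0805 for RSPO4 (WT replicate 1) and -0.587 to 0.0401 for ZNRF3 (WT replicate 2). The others were RSPO2 (-0.819 to 1.01), WNT2B (-0.539 to 1.75), TCF7 (-0.687 to 0.732), DKK3 (-0.342 to 0.545), FZD3 (-0.302 to 0.284), FZD6 (-0.419 to 0.0725), FZD8 (-0.411 to 0.402), SFRP5 (-0.91 to 0.0412) and APC (-0.0766 to 0.831). For FZD5, DKK2, AXIN1, FZD7, RSPO4, PORCN, TSPAN12 and TNFRSF19, leaving out GFI1-KO replicate 2 put the knockout group at 0 counts, so no fold change is given. Depth limits the 22 tested Wnt genes with at most 3 counts in GFI1-KO 1, and others as well. There DVL1 and LEF1 had 4 counts, DVL2 had 8 and TCF7L1 had 9, with counting intervals that spanned both WT values.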
